A study of Mus musculus with 6 samples.

Results

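The mitochondrial rows described here are 10 of the 20160 gene rows in a table of TMM-scaled CPM values, read counts divided by an effective library size and not by gene length. They were taken by symbol, and the symbols were chosen from earlier results of these libraries, namely the CPM levels of mitochondrial rows on either strand and their RGLS against model differences. The ratio to mt-Nd6 was part of the same choice. Those values and ratios are given below as descriptions. The light-strand rows are mt-Nd6, mt-Tp, mt-Te, mt-Ta and mt-Tq, and the heavy-strand rows are mt-Co1, mt-Nd1, mt-Nd2, mt-Nd5 and mt-Cytb. The libraries came from tumours of S-180 cells, a mouse sarcoma line, injected subcutaneously into nude mice of the BALB/c strain. The RGLS group (3 libraries) had been given RGLS before the cells were injected; the series title links it to Ganoderma lucidum spores freed of their outer coat. The model group (3 libraries) carried the same tumours and is labelled only as model. The sources used here do not state the dose, the age and sex of the mice, or whether each library came from its own mouse, so the spread between libraries may be technical.

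The mouse mitochondrial genome is a small circle that carries genes on both strands. Each strand is transcribed as a long precursor covering nearly the whole circle, and tRNAs cut out of it separate the mRNAs. The strand called heavy encodes most genes, while the strand called light encodes 1 protein, the complex I subunit ND6, and a set of tRNAs. Most of the rest of the precursor that carries ND6 is copied from DNA opposite the heavy-strand genes and is normally degraded. Complex I, complex III and cytochrome c oxidase, which hold the encoded subunits named here, are parts of the respiratory chain.

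The GENCODE annotation of GRCm38 places 9 of the 37 mitochondrial genes on the minus strand, which holds all 5 light-strand rows, and 28 on the plus strand, which holds all 5 heavy-strand rows. The table had a row for 6 of the 8 tRNA genes of the light strand, for 1 of the 14 tRNA genes of the heavy strand, and for 6 of the 12 heavy-strand protein genes. The 4 light-strand tRNA genes read by the rule are shown because their levels differed widely although they have nearly the same length. They are written 5′ to 3′ on the minus strand of chrM with the anticodon, found as the named triplet inside a paired stem of 5 bases, in capitals.
mt-Tp (proline, chrM:15356-15422): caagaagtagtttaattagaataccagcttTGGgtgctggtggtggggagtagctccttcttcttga
mt-Te (glutamate, chrM:14071-14139): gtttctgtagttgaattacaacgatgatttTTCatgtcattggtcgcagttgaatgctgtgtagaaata
mt-Ta (alanine, chrM:5018-5086): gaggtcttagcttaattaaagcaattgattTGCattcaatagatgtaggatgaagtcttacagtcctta
mt-Tq (glutamine, chrM:3772-3842): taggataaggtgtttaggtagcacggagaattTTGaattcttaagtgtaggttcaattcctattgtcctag

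The strands also differ in base composition. This is shown by the first 60 bases of each strand's protein row with the highest mean CPM over all libraries, with every G in capitals.
mt-Nd6 (chrM:14011-14070, minus strand): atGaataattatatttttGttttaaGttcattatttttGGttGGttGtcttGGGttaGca
mt-Co1 (chrM:5328-5387, plus strand): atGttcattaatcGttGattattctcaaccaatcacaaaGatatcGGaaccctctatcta
These stretches held 12 and 6 G. Over its whole length mt-Nd6 was 28.1% G and 5.97% C. The 12 heavy-strand protein genes together were 11.5% G and 26.0% C. Among the members, mt-Nd2 had the lowest share of G at 7.996%, and mt-Tp the highest at 29.9%.

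Each library held between 369453 and 458641 reads in the table, and the 10 members held 7036 to 10456 of them in RGLS libraries and 5532 to 6884 in model libraries. The rows of the table made up 1.79% to 1.95% of the effective library size in RGLS and 2.09% to 2.21% in model, and the sources do not say what the remaining reads were. The strand setting used in counting is not stated. Reads in a light-strand row therefore cannot be assigned to the light-strand RNA rather than to the precursor copied from the other strand at the same place, and the same holds for heavy-strand rows. Annotated genes themselves hardly overlap there: mt-Nd6 shares 14 bases with mt-Nd5 on the opposite strand, mt-Tq shares 3 with mt-Ti, and mt-Co1 shares 3 with mt-Ts1.

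mt-Nd6 (chromosome M, 13552 to 14070), a membrane subunit of complex I, was the most abundant member in every library. It had 264, 205 and 257 CPM in RGLS libraries, against 252, 249.6 and 331 CPM in model libraries. The groups overlapped, and the highest value was that of model 3. The means were 242 ± 32.4 CPM in RGLS and 278 ± 45.9 CPM in model (SD, n = 3 each). This row alone held 64.8%, 66.6% and 76.9% of the members' reads in RGLS libraries and 79.3%, 79.4% and 84.2% in model libraries, with no overlap between the groups.

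mt-Tp, the proline tRNA, is the light-strand gene nearest the control region, from which transcription of that strand starts. It had 22.0, 17.0 and 24.5 CPM in RGLS libraries, against 17.8, 16.7 and 22.5 CPM in model libraries, so the groups overlapped. mt-Tq, the glutamine tRNA, had 2.42, 1.53 and 3.13 CPM in RGLS and 1.496, 1.70 and 2.57 CPM in model, also with overlap. mt-Te, the glutamate tRNA, lies directly beside mt-Nd6 on the same strand but had only 1.36, 1.44 and 1.08 CPM in RGLS and 1.67, 0.848 and 1.31 CPM in model. mt-Ta, the alanine tRNA, was close to the limit of detection, with 3, 2 and 4 reads in RGLS and 7, 1 and 3 reads in model.

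RGLS 2 was the lowest RGLS library in 4 of the 5 light-strand rows (all but mt-Te), and model 3 was the highest model library in 3 of the 5 (mt-Nd6, mt-Tp and mt-Tq). Model 3 was also the highest model library in 971 of the 2319 rows that reached 1 CPM in 3 or more libraries (41.9%), so that order was common in the table. The share of rows in which RGLS 2 was the lowest RGLS library was not counted. Counting error at these depths corresponds to a coefficient of variation of 1.33% for mt-Nd6 in RGLS and 1.43% in model, while the observed ones were 13.4% and 16.6%. For mt-Te the observed values, 14.9% in RGLS and 32.2% in model, were of the size of counting error, 18.2% and 21.2%.

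mt-Co1 (chromosome M, 5328 to 6872), the catalytic subunit of cytochrome c oxidase, was the most abundant heavy-strand member in RGLS. It had 57.6, 44.8 and 24.9 CPM in RGLS libraries, against 19.1, 19.1 and 9.76 CPM in model libraries. All RGLS libraries lay above all model libraries, although RGLS 3 stood much nearer to model 1 and model 2 than RGLS 1 did. The means were 42.4 ± 16.5 CPM in RGLS and 15.99 ± 5.40 CPM in model (SD, n = 3 each), a ratio of means of 2.65.

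mt-Nd1 and mt-Nd2, both membrane subunits of complex I, ranked the RGLS libraries as mt-Co1 did, but not the model libraries: model 3, the lowest for mt-Co1, was the highest for mt-Nd2. mt-Nd1 (chromosome M, 2751 to 3707) had 15.7, 8.95 and 3.32 CPM in RGLS libraries, against 2.13, 3.22 and 2.28 CPM in model libraries. mt-Nd2 (chromosome M, 3914 to 4951) had 9.51, 6.29 and 3.04 CPM in RGLS libraries, against 1.78, 2.49 and 2.51 CPM in model libraries. Neither row overlapped between the groups, but RGLS 3 exceeded the highest model library of mt-Nd1 only by 3.32 to 3.22 CPM. Their ratios of means were 3.66 and 2.78.

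mt-Cytb (chromosome M, 14145 to 15288), the cytochrome b of complex III, had 11.8, 9.70 and 3.69 CPM in RGLS libraries, against 4.32, 4.41 and 4.28 CPM in model libraries. Here RGLS 3 was below every model library, so the groups overlapped, with means of 8.41 ± 4.22 CPM in RGLS and 4.34 ± 0.0677 CPM in model (SD, n = 3 each). The model libraries agreed more closely than counting error alone gives: their coefficient of variation was 1.56%, and counting error corresponds to 11.5%. mt-Nd5 (chromosome M, 11742 to 13565), a further complex I subunit, had 22.8, 12.8 and 13.5 CPM in RGLS libraries and 17.2, 16.3 and 16.9 CPM in model libraries. It was the exception among the heavy-strand rows, with 1 RGLS library above and the other two below every model library.

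The ranking of RGLS 1 above RGLS 2 above RGLS 3 was shared by 4 of the 5 heavy-strand rows, all but mt-Nd5, and by 0 of the 5 light-strand rows. Of the 2319 rows tested, 216 (9.31%) had that order. The observed coefficient of variation in RGLS was 38.9% for mt-Co1, 66.5% for mt-Nd1, 51.5% for mt-Nd2 and 50.2% for mt-Cytb, against 3.14%, 6.65%, 8.14% and 7.04% from counting error.

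**Figure D1:**
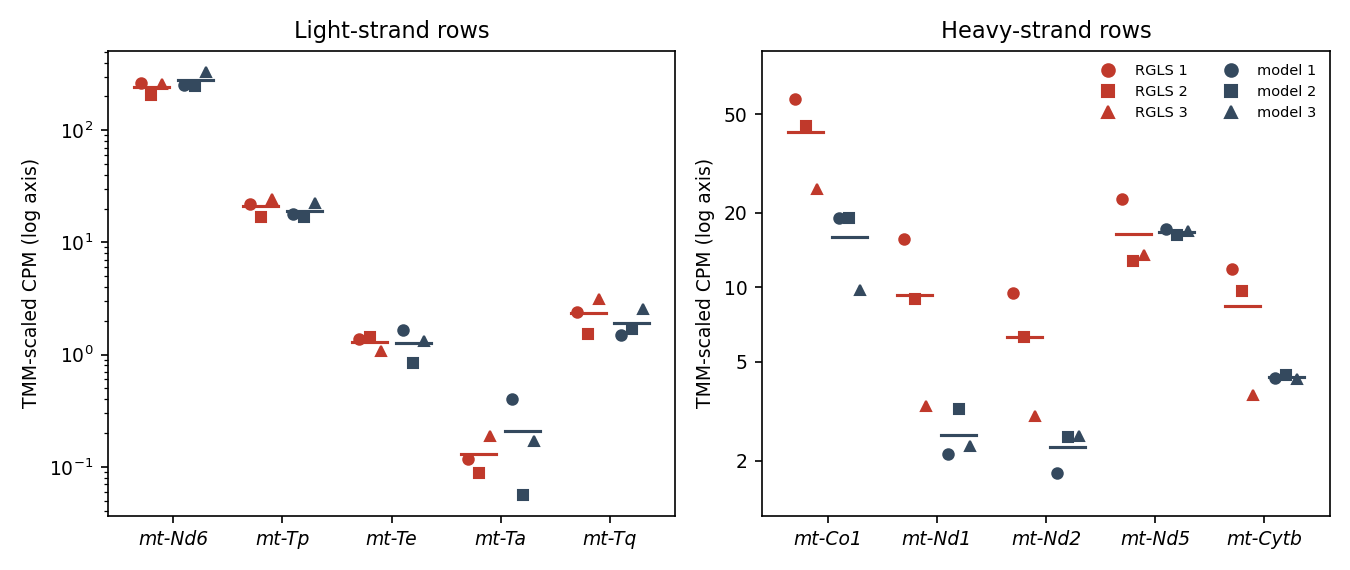
TMM-scaled CPM of the 5 light-strand rows (left) and the 5 heavy-strand rows (right) on log axes with separate ranges; each symbol is 1 library, RGLS in red and model in dark blue, and horizontal lines are means of 3 libraries. mt-Nd6 lies between 205 and 331 CPM with both groups mixed, while the RGLS values of mt-Co1 (24.9 to 57.6 CPM) lie above its model values (9.76 to 19.1 CPM).

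In a fit of limma to log2(CPM + 1) over all 2319 rows tested, 9 of the 10 members could be fitted, and mt-Ta was below the filter. Of these 9, 1 was called higher in RGLS, mt-Co1, and 0 were called lower, where the shares over all rows were 0.949% (22 rows) and 0.517% (12 rows). At an unadjusted p under 0.05, limma had 6.04% of all rows higher and 17.2% lower, and 4 of the 9 members (mt-Co1, mt-Nd1, mt-Nd2 and mt-Cytb) were higher and 0 lower. The members had been named with such results known, so these values are descriptions of the libraries. Fold changes on this scale understate the change of low rows.

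The log2 fold change was 1.33 for mt-Co1 (SE 0.26), at an adjusted p of 0.0167 from limma, with all 3 RGLS libraries above all model libraries. mt-Nd1 had 1.35 (SE 0.33, limma adjusted p = 0.0503), mt-Nd2 1.06 (SE 0.27, limma adjusted p = 0.0532) and mt-Cytb 0.70 (SE 0.27, limma adjusted p = 0.145), none of them past the threshold of 0.05. mt-Nd5 had -0.082 (SE 0.18) and mt-Nd6 -0.19 (SE 0.13), with adjusted p of 0.821 and 0.404 from limma. The light-strand tRNAs had log2 fold changes of 0.14 for mt-Tp, 0.19 for mt-Tq and 0.023 for mt-Te. The median log2 fold change was 1.06 over the 5 heavy-strand rows and 0.084 over the 4 light-strand rows fitted, beside -0.17 over all rows tested.

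The call for mt-Co1 was lost without model 3 (log2 fold change 1.03), without RGLS 1 (1.08) and without RGLS 2 (1.25), with limma adjusted p = 0.0880, 0.235 and 0.0911. On whole reads recovered from the CPM values, edgeR called mt-Co1, mt-Nd1 and mt-Nd2 higher (adjusted p = 0.0208, 0.0378 and 0.0470), where it called 0.949% of all rows higher and 0.474% lower. DESeq2 called mt-Co1 and mt-Nd2 (adjusted p = 0.0489 and 0.00676) and not mt-Nd1 (0.0654), with 1.29% of all rows higher and 2.03% lower. Without RGLS 3, limma called mt-Nd1 (1.88), mt-Nd2 (1.43) and mt-Cytb (1.14) higher.

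In CPM, 3 of the 9 fitted members, mt-Co1, mt-Nd1 and mt-Nd2, had every RGLS library above every model library, and 0 the reverse. Over all rows tested 4.53% were higher without overlap and 22.1% lower. Among the 484 tested rows that have no gene on the opposite strand over at least 50 exonic bases, the class to which all fitted members belong, the shares were 13.0% higher and 14.0% lower.

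A ratio of reads within 1 library does not depend on how that library was scaled. Per 100 mt-Nd6 reads, mt-Co1 had 21.8, 21.9 and 9.67 reads in RGLS libraries, against 7.57, 7.66 and 2.95 reads in model libraries. The groups did not overlap, and in each group library 3 was the lowest and the other two were nearly equal. The mean was 17.8 ± 7.03 in RGLS and 6.06 ± 2.69 in model (SD, n = 3 each), a ratio of 2.94. The exact 95% intervals from counting were 8.83 to 10.6 for RGLS 3 and 6.84 to 8.56 for model 2, the nearest pair, and did not overlap.

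mt-Nd2 had 3.60, 3.07 and 1.18 reads per 100 mt-Nd6 reads in RGLS and 0.707, 0.997 and 0.760 in model, again without overlap. mt-Nd1 had 5.95, 4.37 and 1.291 in RGLS and 0.843, 1.291 and 0.690 in model, where RGLS 3 and model 2 were level. mt-Cytb had 4.49, 4.74 and 1.44 in RGLS and 1.71, 1.77 and 1.29 in model, so RGLS 3 lay among the model libraries. mt-Nd5 stayed in a narrow range, at 8.63, 6.25 and 5.24 in RGLS and 6.82, 6.52 and 5.11 in model.

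The rows of the light-strand tRNAs can be set against the row of mt-Nd6, a gene annotated on the same strand, with the same limit on the strand of the reads. mt-Tp had 8.32, 8.30 and 9.53 reads per 100 mt-Nd6 reads in RGLS libraries, against 7.04, 6.68 and 6.80 in model libraries. Although its CPM values overlapped, these ratios did not, with means of 8.72 ± 0.703 in RGLS and 6.84 ± 0.184 in model (SD, n = 3 each), a ratio of 1.27. The counting interval of RGLS 2 (7.46 to 9.21) and that of model 1 (6.26 to 7.91) overlapped. mt-Tq had 0.915, 0.747 and 1.22 in RGLS and 0.593, 0.680 and 0.777 in model, and mt-Te 0.516, 0.704 and 0.418 in RGLS and 0.661, 0.340 and 0.397 in model. Both overlapped between the groups. mt-Ta ranged from 0.0427 to 0.0727 in RGLS and from 0.0227 to 0.160 in model, on 9 and 11 reads in all.

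Of the 9 ratios to mt-Nd6, 3 (mt-Co1, mt-Nd2 and mt-Tp) were higher in RGLS without overlap and 0 were lower. Over all 2318 other rows tested the shares were 5.52% higher and 5.52% lower, and among rows with no gene opposite 14.7% were higher and 4.55% lower. All 9 ratios share the mt-Nd6 reads of their library. The ratio to mt-Nd6 was part of the rule that named the members, so these counts are descriptions. Summed over each strand, the heavy-strand rows made up 28.8%, 26.9% and 14.5% of the members' reads in RGLS libraries, against 14.0%, 14.5% and 9.09% in model libraries, with RGLS 3 just below model 2.

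**Figure D2:**
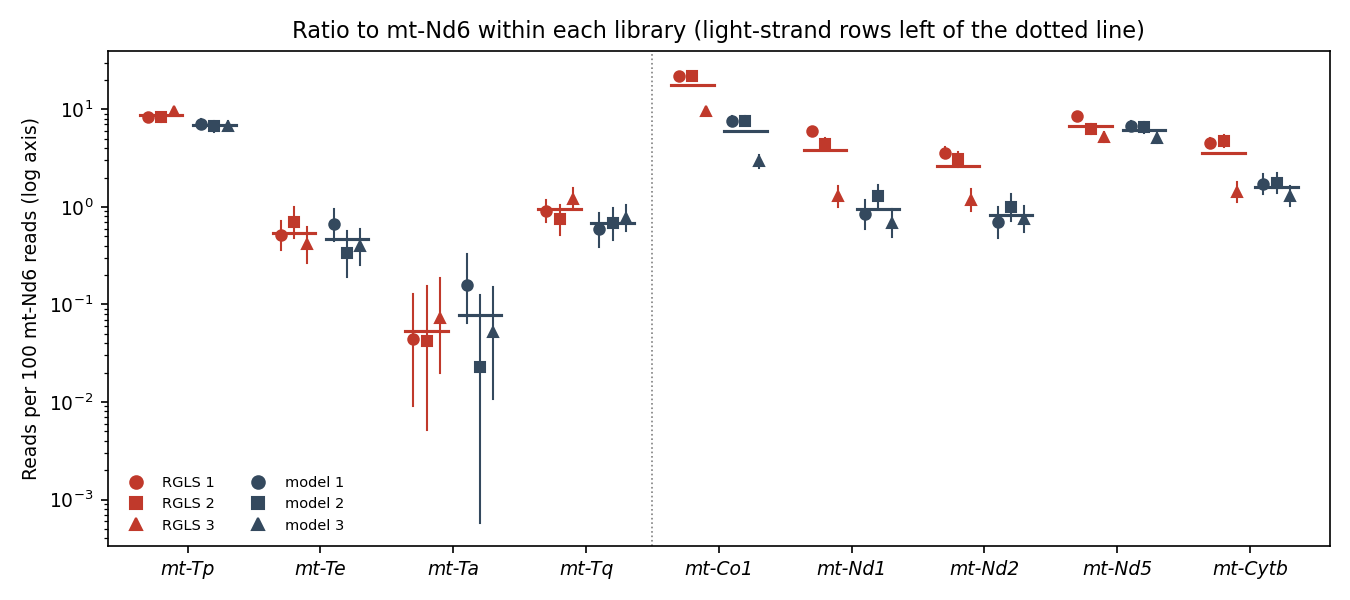
Reads per 100 mt-Nd6 reads in each library on a log axis, for the 4 other light-strand rows and the 5 heavy-strand rows; symbols are libraries, vertical lines exact 95% counting intervals and horizontal lines means of 3 libraries. For mt-Co1 the RGLS values (9.67 to 21.9) lie above the model values (2.95 to 7.66), mt-Nd5 lies between 5.11 and 8.63 with mixed groups, and mt-Tp between 6.68 and 9.53 with RGLS above.

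Of the heavy-strand members' reads, mt-Co1 held 49.1%, 54.3% and 51.4% in RGLS libraries, against 42.9%, 41.99% and 27.3% in model libraries. mt-Nd5 held 19.4%, 15.5% and 27.8% in RGLS libraries, against 38.6%, 35.8% and 47.3% in model libraries. The shares of the 5 rows sum to 100% in each library, so a lower share of mt-Nd5 is not a lower level: its mean was 16.4 ± 5.59 CPM in RGLS and 16.8 ± 0.467 CPM in model (SD, n = 3 each). In model 3, mt-Nd5 had more reads than mt-Co1.

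Levels of different genes are compared per kb of annotated gene, on which scale the members spanned a wide range. mt-Nd6 had 466 ± 62.4 CPM per kb in RGLS and 535 ± 88.5 in model, and mt-Tp followed with 316 ± 57.0 in RGLS and 283 ± 46.0 in model (SD, n = 3 each). These were the top members in both groups, and neither overlapped its neighbour in the order. Next came mt-Tq at 33.2 ± 11.3 in RGLS and 27.0 ± 8.03 in model. mt-Co1 had 27.5 ± 10.7 CPM per kb in RGLS and 10.4 ± 3.49 in model. The libraries of mt-Tq, mt-Co1 and mt-Te overlapped as neighbours in RGLS, so their order there is not resolved. mt-Te had 18.7 ± 2.80 in RGLS and 18.5 ± 5.96 in model.

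The remaining heavy-strand rows lay below 10 CPM per kb on average. In RGLS, mt-Nd1 (9.74 ± 6.48), mt-Nd5 (8.96 ± 3.06), mt-Cytb (7.35 ± 3.69) and mt-Nd2 (6.05 ± 3.12) overlapped each other as neighbours. In model, mt-Nd5 (9.21 ± 0.256) stood clear of mt-Cytb (3.79 ± 0.0592), and mt-Nd1 (2.66 ± 0.619) and mt-Nd2 (2.18 ± 0.398) overlapped. mt-Ta was lowest in RGLS, at 1.89 ± 0.741, and had 3.05 ± 2.56 in model. Relative to mt-Nd6 per kb, mt-Co1 stood at 0.0598 in RGLS and 0.0204 in model, and mt-Tp at 0.675 in RGLS and 0.530 in model. Since a tRNA gene is 67 to 71 bases long here, its level per kb depends on how reads reaching past its ends were counted, which is not stated.

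Among the rows annotated on the light strand, whose reads cannot be assigned to a strand of RNA, the levels per kb did not follow position. Starting from the control region, mt-Tp was high, mt-Te low, mt-Nd6 high, and the tRNAs beyond it low again. On the heavy strand, from mt-Nd1 through mt-Co1 and mt-Nd5 to mt-Cytb, mt-Co1 had the highest mean in both groups, although in model its libraries overlapped those of mt-Nd5.

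**Figure D3:**
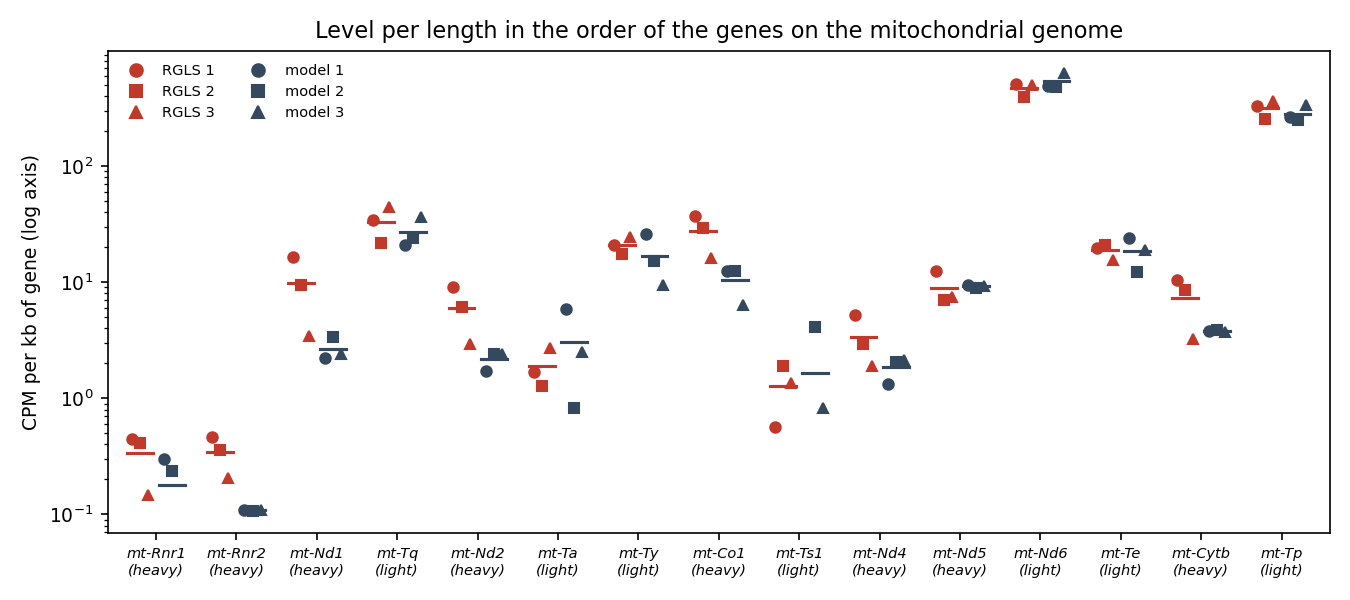
CPM per kb of gene on a log axis for 15 mitochondrial rows in genome order, with the strand under each name; symbols are libraries and horizontal lines means of 3 libraries. Values of 0 (mt-Rnr1 in model 3, mt-Ts1 in model 1) are not drawn, and mt-Tt, with 1 read in all, is left out. mt-Nd6 (394 to 637) and mt-Tp (249 to 366) stand far above every other row.

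The table held 6 further mitochondrial rows. mt-Nd4, a heavy-strand complex I subunit, had 7.21, 4.02 and 2.62 CPM in RGLS libraries and 1.84, 2.83 and 2.97 CPM in model libraries. It ranked the RGLS libraries as mt-Co1 did and overlapped between the groups (log2 fold change 0.60, limma adjusted p = 0.179). mt-Ty, the light-strand tyrosine tRNA, had 1.40, 1.18 and 1.64 CPM in RGLS and 1.73, 1.02 and 0.628 CPM in model. The ribosomal RNAs, which are normally the most abundant mitochondrial transcripts, were almost absent from their rows: mt-Rnr2 had 19, 13 and 7 reads in RGLS and 3, 3 and 3 in model, and mt-Rnr1 11, 9 and 3 in RGLS and 5, 4 and 0 in model. mt-Ts1 had 6 reads over each group. Beside the few reads of the ribosomal RNAs, mt-Nd6 had 4687 to 6777 reads in RGLS libraries and 4387 to 5793 in model libraries. Rows with a gene opposite were 6281 of the 20160 in the table and 1799 of the 2319 tested. Whether reads were counted on the strand opposite to their gene was not tested.

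Near-identical nuclear copies were searched among the annotated transcripts, with at least 95% identity over at least 50 bases. mt-Co1 matched Gm13340 on chromosome 2 over all of its 1545 bases (97.6%) and Gm29216 on chromosome 1 over 483 bases (99.8%). mt-Nd4 matched Gm28439 over 876 bases (100%), mt-Nd2 matched Gm13339 over 510 bases (96.7%) and mt-Nd5 matched Gm4076 over 954 bases (95.2%). None of these pseudogenes had a row in the table. Some mitochondrial genes with a match on chromosome 1 had no row themselves. They were mt-Co2 (681 of 684 bases), mt-Co3 (783 of 784), mt-Atp6 (678 of 681) and mt-Nd4l (294 of 297), each at 100%. mt-Nd3 (345 of 348 bases, 99.7%) had none either, nor did mt-Atp8, which had no match. Whether reads fitting both places were left uncounted was not tested. The values of mt-Co1, mt-Nd2, mt-Nd4 and mt-Nd5 are uncertain to that extent. mt-Nd1, mt-Cytb and the 5 light-strand rows had no such match.

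Several measures of the libraries also differed between the groups. Rows with no gene opposite held 21.3%, 18.9% and 15.6% of the annotated reads in RGLS libraries, against 13.8%, 14.4% and 12.4% in model libraries. The 6 libraries fell in the same order by this share as by mt-Co1 in CPM, where model 1 and model 2 were nearly level. By mt-Nd1, mt-Nd2 and mt-Nd5 the model libraries fell in other orders. Set against the summed CPM of rows with no gene opposite, mt-Co1 still did not overlap. It was 1.54%, 1.26% and 0.828% of that sum in RGLS and 0.656%, 0.647% and 0.361% in model. The effective library size was also larger in RGLS, 21394481 to 25668458, than in model, 17377445 to 17683298, and was largest in RGLS 1 and smallest of the RGLS libraries in RGLS 3. The part of these measures in the result was not tested.

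Markers of skeletal muscle, a tissue rich in mitochondria, had a higher summed level in RGLS. Of 17 listed markers 14 had a row, and 11 of these had a higher mean in RGLS, as did 57.1% of all rows of the table and 62.3% of rows with no gene opposite. Of the 14, 5 (Myh1, Myh4, Tnnt3, Tnni2 and Tcap) had no read in model. Over the larger RGLS libraries these rows had 2, 33, 4, 2 and 3 reads in turn, so all but Myh4 were close to the limit of detection in both groups. Tnnc2 (opposite Ube2c), Mb (opposite Gm49540) and Ttn (opposite Gm13938) had a lower mean in RGLS. Among the rows with a higher mean, Ckm, Des, Myh1 and Atp2a1 also lie opposite another gene. The sum was 10.1 to 11.8 CPM in RGLS and 4.72 to 5.65 CPM in model. Acta1, the skeletal muscle actin, had 61, 62 and 41 reads in RGLS and 1, 0 and 1 in model, and limma called 2 of the 4 markers it tested higher, Acta1 and Des. The muscle sum was highest in RGLS 2 and nearly level in RGLS 1 and RGLS 3, whereas mt-Co1 in RGLS 1 was far above that in RGLS 3. Summed over all 16 mitochondrial rows, mostly mt-Nd6, the groups overlapped, at 357 ± 53.9 CPM in RGLS and 346 ± 43.9 CPM in model (SD, n = 3 each). For the higher heavy-strand rows, more muscle and more reads of these rows per cell cannot be told apart in bulk libraries. The part of muscle in the heavy-strand values was not tested.

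Markers of mesenchymal tumour cells, the type expected of a sarcoma, were present at low levels. Their 7 rows of 8 listed summed to 5.49, 3.28 and 2.76 CPM in RGLS libraries, against 2.07, 2.04 and 1.31 CPM in model libraries. All 7 had a higher mean in RGLS, beside the 57.1% of all rows and 62.3% of rows with no gene opposite given above. By their sum the RGLS libraries fell in the same order as for mt-Co1. Thy1 had no read in model and only 5 in RGLS. The 8 macrophage rows of 9 listed summed to 11.8 to 13.7 CPM in RGLS and 14.4 to 16.5 CPM in model. Most of that was Csf1r, which lies opposite Hmgxb3 and had 10.3 ± 1.59 CPM in RGLS and 14.2 ± 0.974 CPM in model (SD, n = 3 each), while the other 7 rows had a higher mean in RGLS. Adipocyte, endothelial and erythroid markers each stayed below 0.7 CPM in every library, with overlap between the groups. The part of these cell types in the heavy-strand values was not tested.

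**Figure D4:**
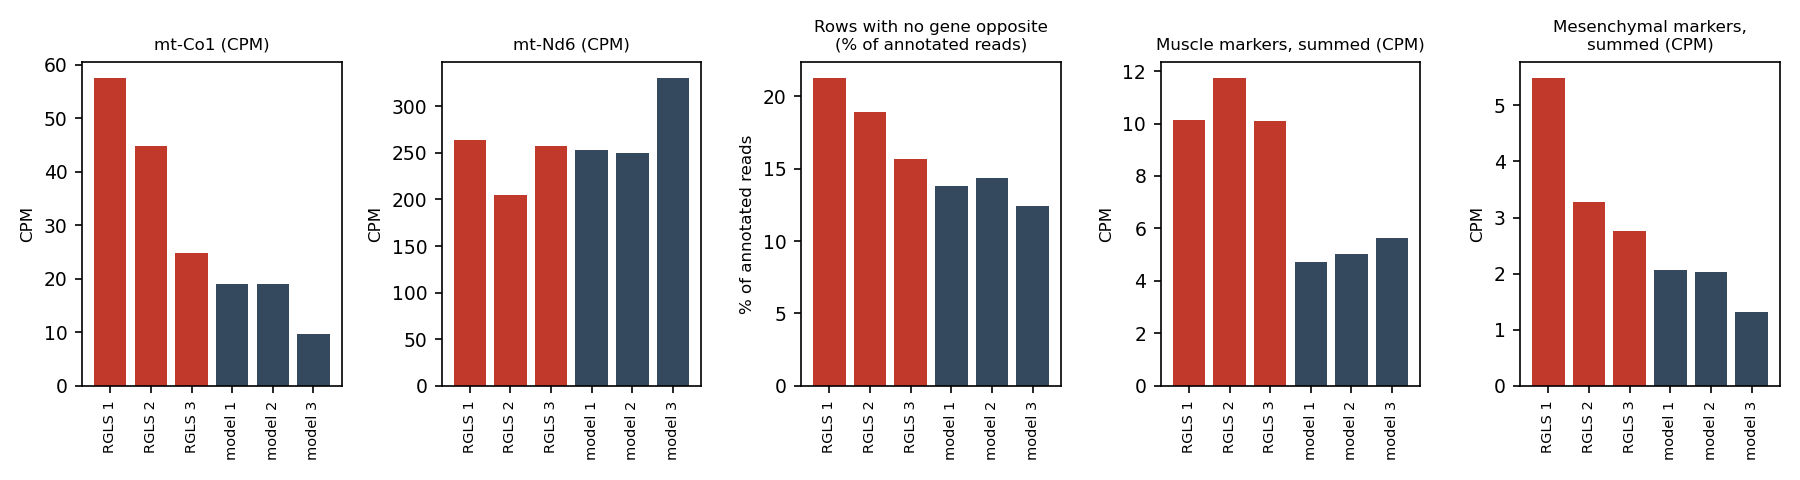
mt-Co1 and mt-Nd6 in CPM, the share of annotated reads in rows with no gene opposite, and the summed CPM of skeletal muscle and mesenchymal markers in each library, RGLS in red and model in dark blue, with bars from 0. mt-Co1 (24.9 to 57.6 CPM in RGLS, 9.76 to 19.1 CPM in model) and the share (15.6% to 21.3% in RGLS, 12.4% to 14.4% in model) order the libraries alike, while mt-Nd6 does not separate the groups.

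Nuclear genes that act on mitochondrial transcripts include the RNA polymerase Polrmt, its partner Tfam, the processing nuclease Elac2, and Pnpt1 and Supv3l1, which together degrade mitochondrial RNA. Of 39 listed genes 38 had a row, 10 reached the tested level, and limma called 0 of the 10, with 0 also at an unadjusted p under 0.05. edgeR called 0 of the 10 and DESeq2 0 of the 6 to which it gave an adjusted p. In CPM, 5 of the 10 were lower in RGLS without overlap and 0 higher, where 22.1% of all rows tested and 24.4% of those with a gene opposite were lower in that way. Their median log2 fold change was -0.23, beside -0.17 over all rows tested, and 9 of the 10 lie opposite another gene. Fastk, a mitochondrial RNA-binding protein (opposite Slc4a2), had 5.14 ± 0.539 CPM in RGLS and 6.60 ± 0.773 CPM in model. Mterf2 (opposite Tmem263) and Mterf4 (opposite Sned1), of a family named for transcription termination, had 0.935 ± 0.102 and 2.64 ± 1.54 CPM in RGLS, against 1.52 ± 0.601 and 4.82 ± 3.05 CPM in model. Polrmt, Tfam, Elac2, Pnpt1 and Supv3l1 were below the filter, at means of 0.0286 to 0.459 CPM in RGLS and 0.0192 to 0.798 CPM in model.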

How the data were processed

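RNA of the tumours was sequenced in 3 RGLS and 3 model SMARTER mRNA-Seq libraries, per the labels' protocols. Bowtie2, HTSeq and mm10 are named without roles, per the submitters' processing notes. The authors deposited 1 table of 20160 rows in TMM-scaled CPM. Each column is a whole multiple of its smallest value above 0 (100% of values, tolerance 0.001 of a read), so reads and effective library sizes were recovered. Positions and sequences are those of GENCODE vM21 (GRCm38, the assembly of mm10); 19732 symbols matched.

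RGLS was compared with model in R 4.3.3 with limma 3.58.1, whose moderated test (2-sided, with a mean-variance trend) was applied to log2(CPM + 1). Rows had to reach 1 CPM in 3 or more of the 6 libraries, and p-values were Benjamini-Hochberg adjusted over all of them. edgeR 4.0.16 and DESeq2 1.42.0 on recovered reads were alternatives. The tests were checked on simulated counts, with the same spread between libraries set for every row. That check does not cover rows with a wider spread. No library duplicated another: over the 15 pairs, chi-square was 2.75 to 7.15 for each degree of freedom. Counting intervals are exact (Clopper-Pearson) and cover counting error only. The members and lists were chosen with earlier results of these data known. Named rows are the members, other mitochondrial rows of at least 1 CPM, the 3 listed nuclear factors with the smallest p, nuclear copies of at least 1 CPM (none), and the 5 rows nearest in profile to mt-Co1 and to mt-Nd6. Any other row is named because of its value.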

Additional observations from a re-analysis of the deposited data

How the results depend on the processing

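The counts of rows called higher and lower were 22 and 12. They became 9 and 4 at a pseudocount of 0.1, 208 and 67 without a filter, 4 and 84 at 10 CPM, 11 and 3 without a trend, 34 and 41 with a robust prior, 10 and 4 with the same median, and 7 and 2 after quantile normalization. DESeq2 called 47 lower. Without 1 library the counts ranged from 7 to 103 higher and from 3 to 106 lower, the highest without RGLS 3. Libraries numbered 3 deviated together (correlation 0.378) and those numbered 1 and 2 did not (0.00441 and -0.00556). RGLS 2 and model 1, which differ in number, also deviated together (0.331). The numbers were not taken as pairs. With the replicate number as a block, 111 and 120 rows were called, and mt-Nd1 (1.35), mt-Nd2 (1.06) and mt-Cytb (0.70) passed the threshold.

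mt-Co1 kept its direction in all 18 alternatives and its call in 11. It lost the call without a trend and with a robust prior (1.33), with the same median (1.43) and after quantile normalization (1.58), and ranged from 1.03 to 1.67 without 1 library. mt-Nd1 was called without a filter (1.35) and by edgeR (1.88), and ranged from 0.90 to 1.88 without 1 library. mt-Nd2 was called without a filter (1.06), by edgeR (1.48) and by DESeq2 (1.48), and ranged from 0.74 to 1.43. mt-Cytb ranged from 0.41 to 1.14. mt-Nd6 was called lower without a filter (-0.19) and changed sign after quantile normalization (0.22). mt-Nd5 changed sign with the same median (0.019) and after quantile normalization (0.17), and ranged from -0.33 to 0.060 without 1 library. mt-Te changed sign with the same median within rows with and without a gene opposite (-0.093), an alternative chosen after seeing the data, and ranged from -0.12 to 0.15 without 1 library. The cause was not tested. The log2 difference of the ratios to mt-Nd6 moved by less than the spread between libraries in all 8 alternatives for 8 members. Most of these alternatives leave out 1 of the libraries that give this spread, so a small move was nearly set in advance. Of the 8 members, only mt-Nd5 changed sign. Without 1 library, the log2 difference of mt-Te ranged from 0.0043 to 0.57 and that of mt-Nd5 from -0.098 to 0.28. That of mt-Ta, on 9 and 11 reads, ranged from -0.99 to 0.52 without 1 library.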

Other observations

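The rows nearest to mt-Co1 in profile, by the mean absolute difference of centred log2(CPM + 1) over the 6 libraries, were Tubb5, Krt8-ps, Gm13461, Vcp-rs and Gm9892, at 0.133 to 0.175 (median over 2310 rows 0.781). Tubb5, a beta tubulin, had 8.57, 6.86 and 3.65 CPM in RGLS libraries, against 3.34, 2.83 and 0.628 CPM in model libraries. The other 4 are annotated as processed pseudogenes, and none of the 5 has a gene opposite. The nearest other members were mt-Nd2 (0.284), mt-Nd1 (0.299) and mt-Cytb (0.319).

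The rows nearest to mt-Nd6 were Gm11508, Iqck, Adgre5, Gm10575 and Dhrs13os, at 0.0229 to 0.0547 (median 0.215). Each lies opposite another gene, Srsf1, Gprc5b, Ddx39, Cracr2b and Phf12 in turn, as do 77.6% of the rows tested. Gm11508 had 11.6, 8.87 and 11.97 CPM in RGLS libraries, against 11.05, 11.1 and 15.2 CPM in model libraries. From mt-Nd6, mt-Tp lay at 0.169, mt-Nd5 at 0.190, mt-Tq at 0.192 and mt-Te at 0.238, while mt-Co1 lay at 0.764. By this measure the heavy-strand row mt-Nd5 was nearer to mt-Nd6 than to mt-Co1 (0.707).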
